A study of Bos taurus with 2 samples.

Results

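The genes described are those that carry glucose into the cell, break it down to pyruvate and turn pyruvate into lactate, in 1 pool of CDKN1C-siRNA-injected and 1 pool of Sham-injected bovine IVF embryos. They were chosen by symbol from a list of 32 glucose and lactate transporters, glycolytic enzymes and regulators, to which DHDH, a dihydrodiol dehydrogenase that the study named among its sugar catabolism genes, had been added. The list gave 31 symbols at 32 loci, of 21209 symbols in all; PGK1 was not analysed here. Both pools were made from bovine (Bos taurus) oocytes fertilized in vitro. The injected zygotes received siRNA against CDKN1C, a cell-cycle inhibitor, and the sham zygotes were pierced with the needle without siRNA. Embryos were collected as blastocysts for qRT-PCR, but the stage and number of embryos in the sequenced pools are not given in the sources used here. RNA of each pool was amplified before sequencing. The embryos of a pool were measured together, so fewer cells of a type and less RNA per cell cannot be told apart.

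CDKN1C itself was 14.6 FPKM with its siRNA and 49.5 FPKM with sham injection, 3.40-fold lower after siRNA injection. GAPDH, to which the study normalized its qRT-PCR of CDKN1C, was 3.24-fold lower in the same pools. CDKN1C therefore differed little relative to GAPDH in these pools. The study's qRT-PCR, normalized to GAPDH, did report a knockdown of CDKN1C in injected blastocysts. How much of the difference in FPKM is specific to the siRNA was not tested here. FPKM counts fragments scaled to transcript length and to the size of the library, here set by its upper quartile. Genes within a pool are thereby put on a common scale, while a comparison of pools rests on the upper quartile scaling. How far amplification of the RNA altered the levels of genes relative to each other was not tested. Of 9 trophectoderm markers all passed a mean of 1 FPKM, KRT8 among them at 1610 FPKM in the injected and 5760 FPKM in the sham pool, and of 6 inner cell mass markers 5 passed. Their summed levels were 7589 against 17593 FPKM for trophectoderm and 104 against 246 FPKM for inner cell mass. KRT8 and KRT18, at 5389 against 11245 FPKM, made up most of the trophectoderm sum, and of the 9 markers 3 were at least 2-fold lower and 1, IFNT2, was higher, at 135 against 31.1 FPKM. Of the 5 inner cell mass markers 1 was at least 2-fold lower, POU5F1 at 56.3 against 170 FPKM. Of 6 hypoblast markers 4 passed, with sums of 33.3 and 27.9 FPKM and SOX17 at 0 in both pools. GATA6 was 14.0 against 13.7 FPKM, LAMB1 15.5 against 8.55 FPKM and PDGFRA 2.58 against 1.82 FPKM. HNF4A, at 1.16 against 3.78 FPKM, was the 1 at least 2-fold lower. Of 12 cumulus and granulosa cell markers 5 passed, with sums of 16.9 and 31.0 FPKM and with PTX3 and AMH at 0 in both pools. HSD3B1, at 3.29 against 15.7 FPKM, was the 1 at least 2-fold lower, and the other 4 lay within 2-fold. Among these 4, FSHR was 4.87 against 5.69 FPKM and INHBA 3.08 against 2.05 FPKM. Of 5 blood markers 1 passed, HBA at 13.0 and 13.2 FPKM, while HBB was at 0 in both pools. The part of cell makeup in the differences given here was not tested.

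Glucose enters cells through the SLC2A facilitated transporters, is trapped by hexokinase and is committed to glycolysis by phosphofructokinase, which fructose 2,6-bisphosphate made by the PFKFB enzymes stimulates. Aldolase splits the sugar, the following enzymes oxidize and rearrange the triose to pyruvate, and lactate dehydrogenase exchanges pyruvate and lactate, which leave or enter with the SLC16A carriers. Mammalian embryos rely largely on pyruvate and lactate in the first cleavages and take up more glucose as they compact and form the blastocyst.

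The summed levels of GPI, phosphofructokinase, aldolase, TPI1, GAPDH and enolase were lower in the injected pool, while those of the carriers, hexokinase and the other enzyme steps were closer to equal or higher. Differences are log2 ratios, injected to sham, with 1 FPKM added to each value, for symbols whose 2 pools averaged 1 FPKM or more. This scale understates the change of genes with low values. Of the 22 listed genes that passed this mean, 9 were at least 2-fold lower (GPI, PFKL, ALDOA, TPI1, GAPDH, ENO1, ENO3, DHDH and SLC2A8), 0 were at least 2-fold higher and 13 lay within 2-fold. Among all 7984 symbols tested 15.7% lay past 2-fold downwards and 4.92% past 2-fold upwards. The 22 genes had a median of -0.70 on the log2 scale, and all symbols one of -0.17. With 1 library in each group there is no replicate check, no error and no p-value for any difference, and the fold rule is one of size. The study named 6 of the 9 lower genes (ENO1, ENO3, GPI, PFKL, TPI1 and DHDH) from these pools, and a direction chosen that way is no independent evidence; without them 3 of 16 genes were at least 2-fold lower and the median was -0.56.

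**Figure D1:**
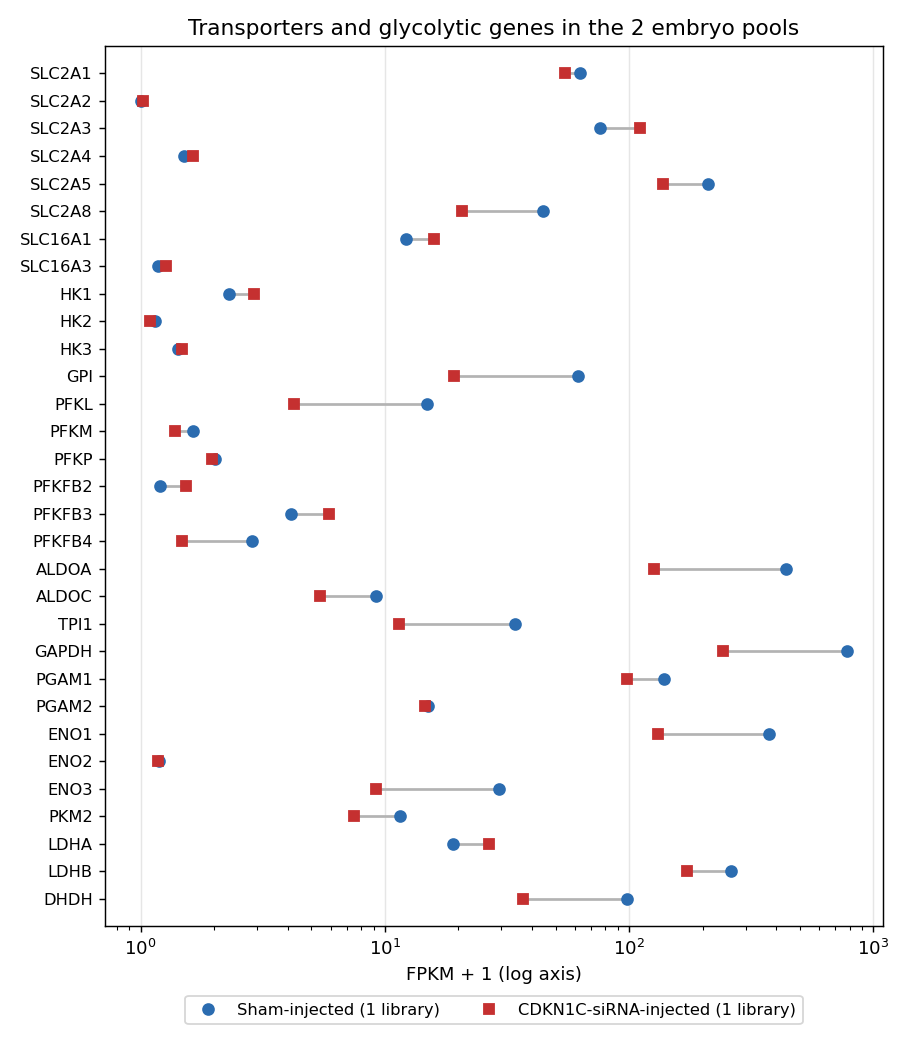
FPKM + 1 (horizontal, log axis) of the 31 genes found, in pathway order from transporters to lactate dehydrogenase and then DHDH, with blue circles for sham injection and red squares for CDKN1C siRNA, each from 1 library. The red square lies well to the left of the blue circle at GPI, PFKL, ALDOA, TPI1, GAPDH, ENO1, ENO3 and DHDH, while SLC2A3, SLC16A1, HK1, PFKFB3 and LDHA have the red square to the right.

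**Figure D2:**
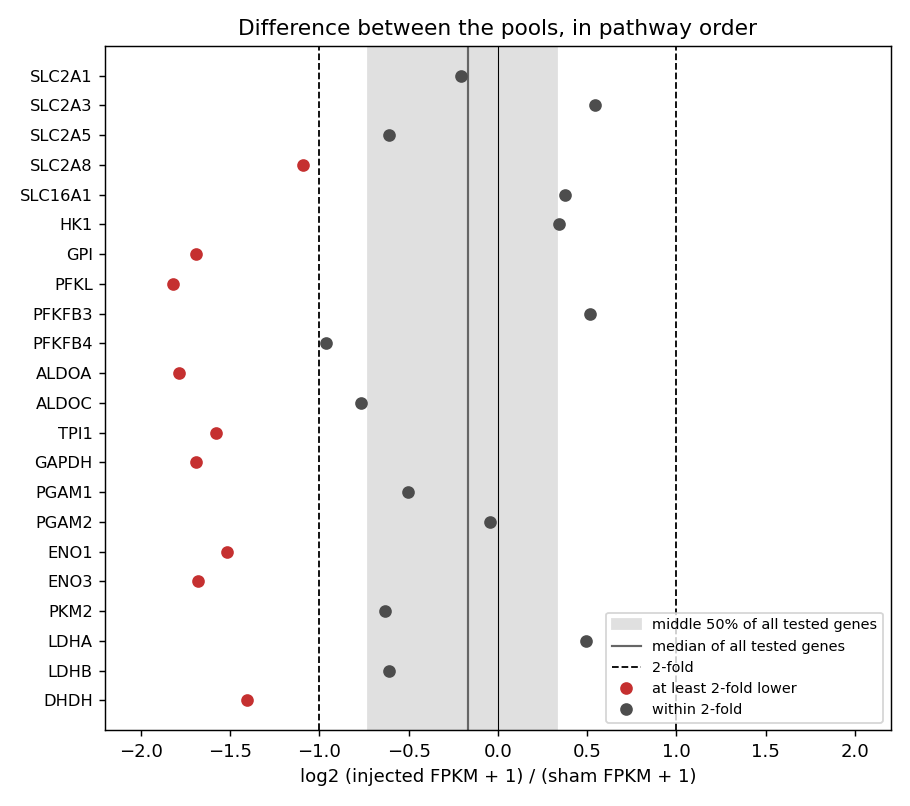
Log2 difference between the pools (horizontal) for the 22 genes that passed the 1 FPKM filter, in pathway order, beside the median (grey line) and the middle 50% (grey band) of all 7984 symbols tested. The 9 red points lie left of the dashed 2-fold line at -1 and 0 points lie right of the line at 1.

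The scale between the pools matters for these counts. Summed FPKM over all loci was lower in the injected pool, at 0.759 of the sham total, and bringing both pools to the same total moved the median log2 difference of all symbols from -0.17 to 0.17. Among all symbols past 2-fold, 23.8% were higher in the injected pool as deposited and 62.6% after that scaling. Of all 8262 symbols that passed with equal totals, 7.56% were then past 2-fold downwards and 12.6% upwards. Of the listed genes 8 were then at least 2-fold lower and 0 higher, since SLC2A8 went from -1.09 to -0.71.

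The glucose transporters changed in their proportions. SLC2A5, which carries mainly fructose, was 137 FPKM with CDKN1C siRNA and 209 FPKM with sham injection and had the highest level of the family in both. SLC2A3, the high-affinity transporter GLUT3, was 110 FPKM with CDKN1C siRNA and 75.0 FPKM with sham injection. It was 1.46-fold higher in the injected pool, and 1298 of the 7984 symbols were as high or higher on the log2 scale. SLC2A1, the widely expressed GLUT1, was 53.7 against 62.2 FPKM, a log2 difference of -0.21 that turned to 0.18 with FPKM totals made equal, to 0.16 after a loess fit on mean level and to 0.32 after one on local gene density. SLC2A8, an intracellular hexose transporter, was 19.7 against 43.2 FPKM, 2.19-fold lower and the smallest of the differences past 2-fold. SLC2A2 and SLC2A4, the transporters known from liver and from insulin-responsive muscle and fat, were 0.0185 against 0 FPKM and 0.635 against 0.500 FPKM.

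Within the 6 transporters of this family, which summed to 321 FPKM in the injected and 390 FPKM in the sham pool, SLC2A3 made up 34.3% in the injected pool and 19.2% in the sham pool. SLC2A5 made up 42.6% against 53.6% and SLC2A1 16.8% against 15.9%. A share within a pool does not depend on how the pools were scaled to each other. The ratio of SLC2A3 to SLC2A1 was 2.04 in the injected pool and 1.21 in the sham pool. The order of these levels was the same in both pools, SLC2A5 first and then SLC2A3, SLC2A1 and SLC2A8, but SLC2A3 came closer to SLC2A5 in the injected pool.

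Lactate and pyruvate carriers were not lower in the injected pool. SLC16A1, the carrier MCT1, was 14.9 FPKM with CDKN1C siRNA and 11.3 FPKM with sham injection, 1.33-fold higher. SLC16A3, the carrier MCT4 of strongly glycolytic cells, was 0.273 against 0.175 FPKM, so that SLC16A1 made up 98.2% and 98.5% of the pair. BSG, the membrane protein that brings these carriers to the cell surface, was 120 against 388 FPKM, 3.23-fold lower. The carrier and its partner therefore differed in opposite directions between these pools.

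Hexokinase, the first enzyme, had the lowest summed level of any enzyme step. HK1, the isoenzyme found in most tissues, was 1.90 FPKM with CDKN1C siRNA and 1.29 FPKM with sham injection, HK2 was 0.0978 against 0.148 FPKM and HK3 0.473 against 0.420 FPKM. The 3 together were 2.47 against 1.86 FPKM, and HK1 made up 76.9% of them in the injected pool and 69.5% in the sham pool. The HK3 locus shares its location in the files with UNC5A, and the reads of overlapping genes may not be separable.

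GPI and phosphofructokinase, the next steps, were on the other side. GPI, which turns glucose 6-phosphate into fructose 6-phosphate, was 18.1 FPKM with CDKN1C siRNA and 60.8 FPKM with sham injection, and only 219 symbols were as low or lower. PFKL, the liver type of phosphofructokinase, was 3.23 against 13.9 FPKM, 4.31-fold lower and the lowest difference of the list. PFKM, the muscle type, was 0.378 against 0.632 FPKM and PFKP, the platelet type, 0.956 against 1.01 FPKM, both under a mean of 1 FPKM. The high isoenzyme was thus the one far lower in the injected pool, and PFKL went from 89.5% of phosphofructokinase FPKM in the sham pool to 70.8% in the injected pool, while PFKP went from 6.48% to 20.9%. The summed step was 4.57 against 15.6 FPKM.

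The PFKFB genes, whose enzymes make and remove the activator of phosphofructokinase, went both ways. PFKFB3, the isoenzyme with the strongest kinase activity, was 4.89 FPKM with CDKN1C siRNA and 3.12 FPKM with sham injection. PFKFB4 was 0.473 against 1.87 FPKM. Its ratio was 3.95-fold lower, but its log2 difference was -0.96 after adding 1 FPKM and -1.78 after adding 0.1 FPKM, since the value in the injected pool was low and it passed the mean of 1 FPKM through the sham pool. PFKFB2 was 0.541 against 0.201 FPKM. PFKFB3 made up 82.8% of the 3 in the injected pool and 60.1% in the sham pool, and PFKFB4 8.01% against 36.1%.

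Aldolase, TPI1 and GAPDH, the triose steps, were lower by similar factors. ALDOA, the main aldolase, was 126 FPKM with CDKN1C siRNA and 437 FPKM with sham injection, 3.47-fold lower, and ALDOC, the brain type, was 4.42 against 8.24 FPKM. ALDOA made up 96.6% and 98.1% of the pair. TPI1, triosephosphate isomerase, was 10.5 against 33.2 FPKM, 3.17-fold lower. GAPDH oxidizes the triose and was the reference gene of the study's qRT-PCR. It had 2 loci on chromosome 5 of bosTau7, the build of the deposited values. The locus at chr5:10852909-10857192 was 125 FPKM with CDKN1C siRNA and 409 FPKM with sham injection, and the locus at chr5:110079382-110083724 was 116 against 374 FPKM. Both loci therefore showed the same difference, 3.26-fold and 3.22-fold lower, and near-identical copies may share reads. The RefSeq table of the newer assembly ARS-UCD2.0 lists 1 gene with this symbol.

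The steps after GAPDH were unequal. PGAM1, the main phosphoglycerate mutase, was 97.1 FPKM with CDKN1C siRNA and 138 FPKM with sham injection, and PGAM2, the muscle type, was 13.6 against 14.0 FPKM. The log2 difference of PGAM2 was -0.044 as deposited and turned to 0.33 with FPKM totals made equal, to 0.12 with the median of all symbols at 0, to 0.071 with an equal worth of a fragment in each pool and to 0.48 and 0.19 with loess corrections for length and for mean level. ENO1, the widely expressed enolase, was 130 against 374 FPKM, 2.88-fold lower, and ENO3, the muscle enolase, was 8.20 against 28.5 FPKM, 3.47-fold lower. ENO2, the neuronal enolase, was 0.183 against 0.194 FPKM. ENO1 made up 93.9% of enolase FPKM in the injected pool and 92.9% in the sham pool, so that the makeup of this step hardly moved while its sum was 138 against 403 FPKM. The ratio of PGAM1 to ENO1 was 0.747 in the injected pool and 0.369 in the sham pool.

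Pyruvate kinase, listed as PKM2, the older symbol of PKM, was 6.48 FPKM with CDKN1C siRNA and 10.6 FPKM with sham injection, 1.63-fold lower. Values are given per gene, so its splice forms were not separated. Its level was low beside the enolase that feeds it, with a ratio of PKM2 to ENO1 of 0.0498 in the injected pool and 0.0283 in the sham pool.

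The lactate dehydrogenase genes differed in opposite directions. LDHB, whose subunit prevails in tissues that oxidize lactate, was 171 FPKM with CDKN1C siRNA and 261 FPKM with sham injection, 1.53-fold lower. LDHA, whose subunit prevails in tissues that form lactate, was 25.7 against 18.0 FPKM, 1.43-fold higher. LDHB had the higher level in both pools. LDHA made up 13.1% of the pair in the injected pool and 6.43% in the sham pool, and the ratio of LDHA to LDHB was 0.150 against 0.0687, 2.19 times as high in the injected pool. Neither gene passed 2-fold by itself on the log2 scale, and this ratio does not depend on the scaling of the pools.

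**Figure D3:**
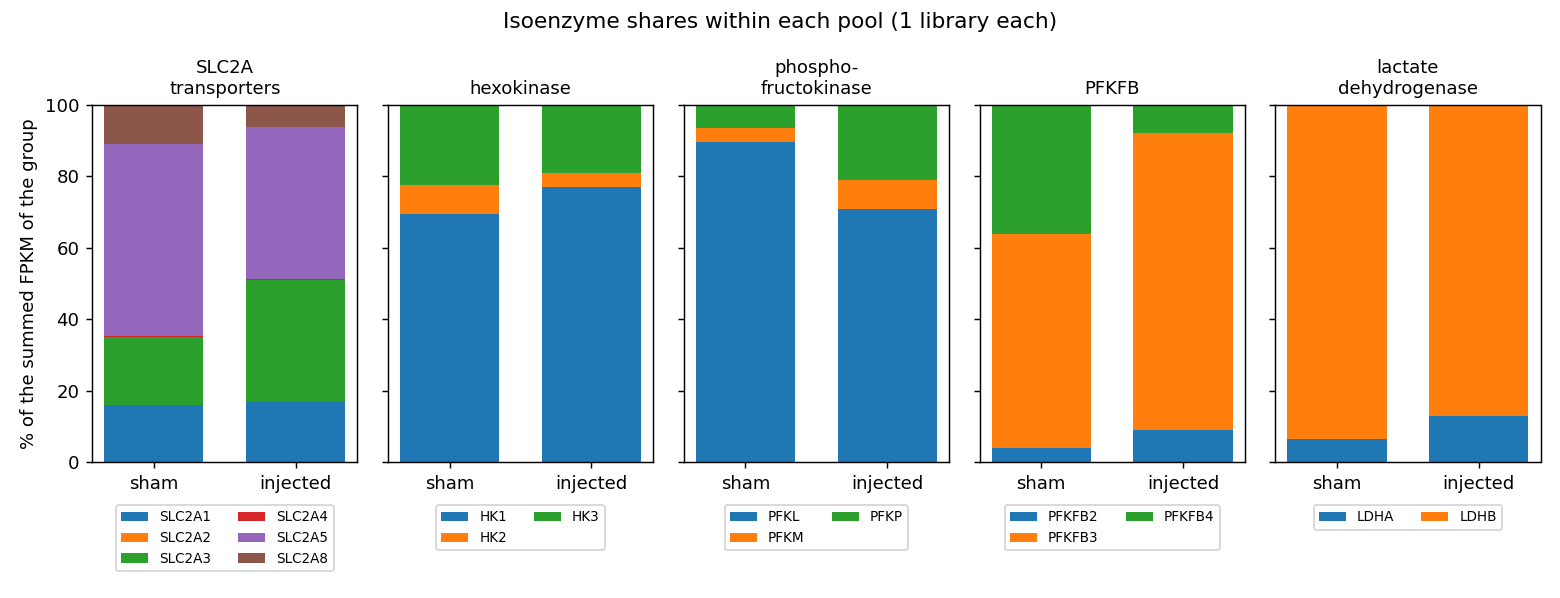
Percent of the summed FPKM of each group (vertical, from 0 to 100) taken by each gene, for the SLC2A transporters, hexokinase, phosphofructokinase, PFKFB and lactate dehydrogenase, in the sham and the injected pool, 1 library each. SLC2A3, PFKP, PFKFB3 and LDHA take larger shares in the injected pool, and SLC2A5, PFKL, PFKFB4 and LDHB smaller ones.

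DHDH, which oxidizes dihydrodiols and some sugars and is not an enzyme of glycolysis, was 36.0 FPKM with CDKN1C siRNA and 96.9 FPKM with sham injection, 2.70-fold lower. Beside GAPDH in the same pool, several of the lower genes kept nearly the same proportion. The ratio of ALDOA to GAPDH was 0.520 in the injected pool and 0.558 in the sham pool, that of TPI1 to GAPDH 0.0433 against 0.0424, and that of GPI to GAPDH 0.0750 against 0.0778. PFKL departed most from GAPDH among the lower enzymes of glycolysis, with ratios of 0.0134 and 0.0178. The ratio of LDHB to GAPDH was 0.707 against 0.334 and that of PGAM1 to GAPDH 0.402 against 0.176, so these genes were higher relative to GAPDH in the injected pool although their FPKM was lower. These pairs were chosen after the values were seen.

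By summed FPKM, the injected pool held 0.292 to 0.344 of the sham level at the aldolase, phosphofructokinase, GPI, GAPDH, TPI1 and enolase steps. It held 0.613 at pyruvate kinase, 0.704 at lactate dehydrogenase and 0.728 at phosphoglycerate mutase. The 6 SLC2A transporters together were at 0.821, which became 1.08 with FPKM totals made equal. SLC2A5, which carries mainly fructose, had the largest share of this sum in both pools. By gene, SLC2A3 was at 1.46 of the sham level, SLC2A1 at 0.864, SLC2A5 at 0.653 and SLC2A8 at 0.456. Hexokinase and lactate transport were at 1.33 each. The 31 genes together made up 0.118% of all FPKM in the injected pool and 0.194% in the sham pool.

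Position in the genome moved with the difference across all symbols. Of symbols with at least 40 other genes within 500 kb, 34.4% were lower by 2-fold or more with CDKN1C siRNA, and of those with fewer than 5 such genes 3.49%. ALDOA, TPI1, ENO3 and DHDH lay in the densest class, and all 4 were at least 2-fold lower. Locus length moved with it too, since 27.1% of symbols under 5 kb were at least 2-fold lower and 6.46% of those of 100 kb or more. The share was 10.6% at a mean of 1 to 5 FPKM and 21.0% at 100 FPKM or more, where 3 of 6 listed genes were lower. After a loess correction for the count of genes within 500 kb, ENO1, GPI, PFKL and GAPDH remained at least 2-fold lower, with log2 differences of -1.64, -1.75, -1.25 and -1.06. ALDOA, TPI1, ENO3 and DHDH were then at -0.98, -0.91, -0.92 and -0.61 and SLC2A8 at -0.77, while LDHA was at 1.11, at least 2-fold higher. After a loess fit on locus length 8 of the 9 were still at least 2-fold lower, and SLC2A8 was at -0.68.

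**Figure D4:**
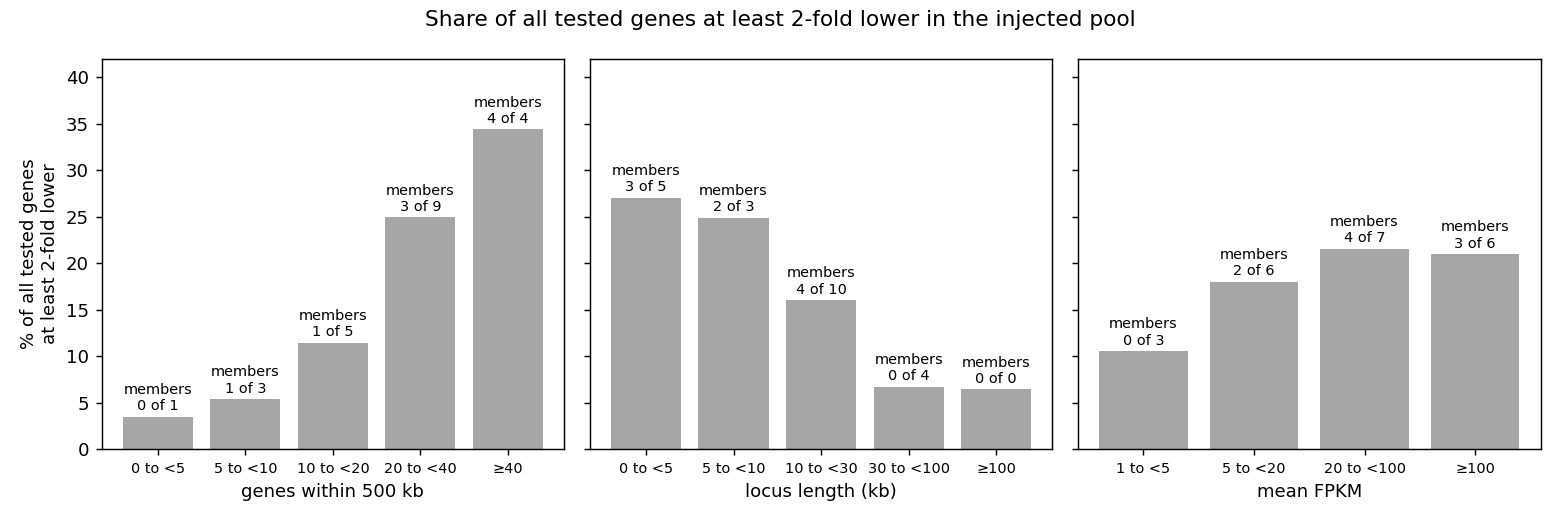
Percent of all tested symbols lower by 2-fold or more with CDKN1C siRNA (vertical, from 0) by number of genes within 500 kb, by locus length and by mean FPKM, with the count of listed genes that were lower above each bar. The share runs from 3.49% to 34.4% from the sparsest to the densest class.

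The loci around the lower genes were not uniform. TPI1 at chr5:10563657-10567014 lies between ENO2, 34.8 kb away, and a GAPDH locus, 286 kb away, and of 20 tested loci within 500 kb of it 6 were at least 2-fold lower, GAPDH among them. ALDOA had 36 such neighbours, of which 16 were lower, and GPI had 4, of which 0 were lower. The second GAPDH locus had 7 neighbours with 0 lower and a median log2 difference of -0.0078, and was itself 3.22-fold lower. As the 2 GAPDH copies may share reads, the value of this locus may not be its own. ENO1 and SLC2A5 lie 146 kb apart on chromosome 16 and differed by -1.52 and -0.61 on the log2 scale. Neighbours were also counted once each, with listed genes left out and both GAPDH loci included. Near the 10 loci of the lower genes 43 of 144 symbols were then at least 2-fold lower, or 29.9%. Near the 13 other loci of genes that passed it was 25 of 107, or 23.4%, with 2 symbols near both kinds of locus, beside 15.7% of all symbols.

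Other enzymes that meet the pathway were lower or within 2-fold on the log2 scale with 1 FPKM added. Of 26 further isoforms and transporters listed, 25 were found and 5 passed the mean of 1 FPKM, with 1 at least 2-fold lower, which was BSG, and a median of -0.30. BPGM, which makes 2,3-bisphosphoglycerate, was 5.47 FPKM with CDKN1C siRNA and 5.40 FPKM with sham injection, and C5H12orf5 was 3.54 against 4.86 FPKM. SLC16A7, the carrier MCT2, was 1.61 against 0.764 FPKM, 2.11-fold higher by plain ratio. In gluconeogenesis 2 of 5 genes were at least 2-fold lower and 0 higher, with a median of -0.77. The shares among all symbols were 15.7% lower and 4.92% higher. PCK2, the mitochondrial PEP carboxykinase, was 5.64 against 25.5 FPKM, 4.52-fold lower, and PC, pyruvate carboxylase, was 15.7 against 48.2 FPKM. The fructose bisphosphatases, which oppose phosphofructokinase, were lower in value too, FBP1 at 0.877 against 1.44 FPKM and FBP2 at 1.05 against 1.93 FPKM with sham injection.

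Among 16 genes of other sugars and of glycogen that passed, the median was -0.50. Of these 3 were at least 2-fold lower and 0 higher, beside 15.7% and 4.92% of all symbols. GALT, the uridylyltransferase of galactose use, was 30.6 FPKM with CDKN1C siRNA against 80.5 FPKM with sham injection. UGP2, which makes the glucose donor of glycogen, was 22.3 against 17.5 FPKM and PGM3, of hexosamine synthesis, 4.59 against 2.82 FPKM. GALT was thus lower in the injected pool, and the 2 genes with the highest differences, UGP2 and PGM3, lay within 2-fold.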

How the data were processed

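RNA-Seq values of 1 CDKN1C-siRNA-injected and 1 Sham-injected pool of bovine IVF embryos were used. As deposited, FPKM values were made by the authors from amplified RNA sequenced on an Illumina HiSeq instrument, with TopHat against bosTau7 and Cufflinks 2.0.2, scaling to the upper quartile and correcting for sequence bias. The gene annotation is not given in the sources used here. Loci of the same symbol were summed. The 615 loci without a symbol, of 22220, were left out of the comparison. The difference was log2((injected FPKM + 1)/(sham FPKM + 1)) over the 7984 symbols whose pools averaged 1 FPKM or more, counted from a fold of 2. With 1 library a group no test was run. Fragment counts were not recovered. Among 1733 loci under 0.1 FPKM the most frequent log2 ratio was -0.12, taken as that of equal fragment numbers, so 1 fragment was worth 0.918 times as much FPKM in the injected pool, and the number of fragments behind a value is unknown.

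Any listed gene could be named, and of each other list the 2 highest and the 2 lowest, with BSG, apart from items not reported here. The genes and lists were chosen with earlier results of these data known. Coordinates are those of the files, with 1 added to each start, since end minus start equalled the RefSeq gene length at loci such as TPI1, PFKL and DHDH. No protein, promoter or genome sequence was used here. Alternatives were a pseudocount of 0.1 or 5 FPKM, no filter or an average of 5 FPKM or more, pools scaled to a median difference of 0 or to equal totals, the highest locus per symbol, loess fits (span 0.3) on locus length and mean level, folds of 1.5 and 4 and leaving out the genes the study named. Values were computed in Python 3.11.15 with statsmodels 0.14.6, pandas 2.3.3 and NumPy 2.4.6, and drawn with matplotlib 3.10.9.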

Additional observations from a re-analysis of the deposited data

How the results depend on the processing

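The count of genes at least 2-fold lower was 9 and stayed between 8 and 10 under the other pseudocounts, filters, scalings, the highest locus per symbol and the loess fits on locus length and mean level. It was 14 with a fold of 1.5, 0 with a fold of 4 and 3 without the 6 genes named by the study. Those 6 were all among the 9 lower genes, so leaving them out could only reduce the count. A loess fit on local gene density (genes within 500 kb), chosen after seeing the data, gave 4 lower and 1 higher, LDHA; the count of higher genes was 0 elsewhere. The median of -0.70 was -0.24 over 31 genes with no filter on low values, and -0.28 with equal FPKM totals. An equal worth of 1 fragment in each pool, also added after seeing the data, gave 8 lower genes and a median of -0.52. Of the 22 genes, 20 kept their sign under all 11 alternatives that gave them a value, and SLC2A1 and PGAM2 did not. Pseudocounts and filters cannot change a sign, and the highest locus altered only GAPDH. Only the scalings and the loess fits could therefore have changed the other signs. Each scaling multiplied the summed levels of all steps by the same factor, and the highest locus changed only GAPDH. That the sums stayed within 1.5 times of their values was thus fixed in advance and checks nothing. The sum of the 6 SLC2A transporters crossed 1, from 0.821 to 1.08 with equal FPKM totals. Isoenzyme shares cannot depend on scaling. No paired analysis and no leaving out of replicates was possible because each group has 1 library. Depth is unknown, so values under 1 FPKM, such as those of HK2, ENO2 and SLC16A3, carry an unknown counting error.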

Other observations

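Pathways that branch from glycolysis or take up its product differed in how many of their genes were lower in the injected pool. Of 5 pentose phosphate genes that passed the 1 FPKM mean, 4 were at least 2-fold lower and 0 higher on the log2 scale. Their median log2 difference was -1.18. The shares among all symbols were 15.7% lower and 4.92% higher. RPIA, ribose 5-phosphate isomerase, was 203 FPKM with CDKN1C siRNA and 465 FPKM with sham injection, and PGLS and PGD, of the oxidative branch, were 61.9 against 143 FPKM and 25.7 against 55.0 FPKM. RPE, the epimerase of the same branch point, was higher, at 3.51 against 1.61 FPKM. Its ratio was 2.18-fold, but it lay within 2-fold once 1 FPKM was added. Of 10 genes that bring pyruvate into the mitochondrial acetyl-CoA pool, 0 were 2-fold lower and 0 higher on the log2 scale with 1 FPKM added. Their median was 0.039. By plain FPKM ratio DLAT was 2.58-fold and PDK1 2.13-fold higher, and PDK2 3.34-fold lower, all at low levels. DLAT, a subunit of pyruvate dehydrogenase, was 3.49 against 1.35 FPKM, and PDK1, the kinase that inhibits this complex, was 2.96 against 1.39 FPKM, while PDK2 was 0.544 against 1.81 FPKM and PDK3 3.52 against 5.16 FPKM.

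Among 7 regulators of glycolytic genes that passed, the median was -0.12. On the log2 scale with 1 FPKM added 1 was at least 2-fold lower and 0 were higher, beside 15.7% and 4.92% of all symbols. VHL, which marks hypoxia-inducible factors for degradation, was 1.79 against 0.605 FPKM, a plain ratio of 2.97. MYCN was 11.2 against 6.45 FPKM and SP1 was 0.863 against 1.68 FPKM. Over all symbols tested the median was -0.17. No difference between these lists was tested.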
